A study of Mus musculus with 6 samples.

Results

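A set of 9 CXC chemokine genes, which encode small secreted proteins that steer leukocytes, was followed in mouse immature dendritic cells (imDCs) with and without fluid shear stress (FSS). They are Cxcl1, Cxcl2, Cxcl3, Cxcl9, Cxcl10, Cxcl11, Cxcl16, Pf4 and Ppbp, chosen by gene symbol, 9 of 22899 genes in the expression table. All 9 had values, and 7 passed the filter of at least 1 FPKM in at least 3 libraries; Cxcl9 and Cxcl11 were below it and are described by their values without a test. FPKM, the unit that the deposited values were taken to have, counts a gene's sequenced fragments per length of its transcript and per size of the library. Levels of different genes can be compared only as far as that reading holds.

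Cells of both groups came from the bone marrow of male C57BL/6 mice aged 7 weeks and were cultured over 7 days in IL-4 (10 ng/ml) plus GM-CSF (20 ng/ml), then selected for CD11c. The static group (3 libraries) stayed without flow. The FSS group (3 libraries) was placed under a cone-plate device that drives the medium over the cells at 10 dyn/cm2 for 3 h. The replicate numbers 1 to 3 occur in both groups, and the labels do not say whether they stand for separate cultures or animals, so the p-values describe no more than the scatter of these 6 samples, possibly a technical one. In bulk RNA, a change in the number of cells of one kind and a change in RNA per cell cannot be told apart.

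CXC chemokines carry a pair of cysteines separated by a single other residue and signal through receptors named CXCR. CXCL1, CXCL2 and CXCL3 act on CXCR2 and draw neutrophils. CXCL9, CXCL10 and CXCL11 act on CXCR3 and draw activated T cells and NK cells, and their genes are classic targets of interferons. CXCL16 is anchored in the membrane, binds CXCR6 and is released by proteases. PF4 and PPBP are stored in platelet granules. Dendritic cells release several of these proteins when they sense microbes, through NF-kB and interferon regulatory factors.

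Upstream sequences are shown for the 4 genes on which the results turn, because Cxcl1, Cxcl2 and Cxcl10 stood higher under FSS whereas Cxcl3, a close relative of Cxcl2, stood lower, and all 4 hold a match to the same motif. The 250 bases before the annotated start were taken from RefSeq sequences of build GRCm38.p6, at chr5:90890995-90891244 (plus strand) for Cxcl1, chr5:90903649-90903898 (plus) for Cxcl2, chr5:90785851-90786100 (plus) for Cxcl3 and chr5:92348890-92349139 (minus) for Cxcl10, and they are written 5′ to 3′ along the gene. Capitals mark matches to the kappaB consensus, the motif bound by NF-kB. In Cxcl10 the first of the 3 capital runs is instead a match to the ISRE core (GAAA, any 2 bases, GAAA), part of the element bound by interferon-activated factors.
Cxcl1: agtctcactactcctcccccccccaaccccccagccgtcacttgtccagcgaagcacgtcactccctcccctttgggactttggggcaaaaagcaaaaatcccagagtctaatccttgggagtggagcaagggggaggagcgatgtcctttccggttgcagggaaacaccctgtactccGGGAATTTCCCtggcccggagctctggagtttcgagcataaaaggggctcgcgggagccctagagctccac
Cxcl2: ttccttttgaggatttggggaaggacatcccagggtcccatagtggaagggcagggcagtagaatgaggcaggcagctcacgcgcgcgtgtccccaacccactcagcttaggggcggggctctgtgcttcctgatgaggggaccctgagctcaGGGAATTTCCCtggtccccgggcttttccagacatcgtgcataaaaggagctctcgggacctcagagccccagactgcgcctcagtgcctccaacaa
Cxcl3: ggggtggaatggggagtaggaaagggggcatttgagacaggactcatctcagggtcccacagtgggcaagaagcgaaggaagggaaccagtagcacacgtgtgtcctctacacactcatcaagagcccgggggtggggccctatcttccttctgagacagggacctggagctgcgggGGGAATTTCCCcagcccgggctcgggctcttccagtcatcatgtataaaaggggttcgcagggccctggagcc
Cxcl10: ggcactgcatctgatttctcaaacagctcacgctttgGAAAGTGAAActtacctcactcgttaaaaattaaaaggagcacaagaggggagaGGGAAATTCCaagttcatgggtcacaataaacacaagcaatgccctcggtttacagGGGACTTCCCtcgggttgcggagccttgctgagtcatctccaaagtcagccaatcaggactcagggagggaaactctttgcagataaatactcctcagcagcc
Both strands were searched. In Cxcl1, Cxcl2 and Cxcl3 the match is GGGAATTTCC, which overlaps a second match on the other strand by all but 1 of its bases, and it begins 71, 97 and 73 bases upstream of the start. Cxcl10 holds GGGAAATTCC, 159 bases upstream, and GGGACTTCCC, 103 bases upstream, beside the ISRE core match GAAAGTGAAA, 213 bases upstream. Of 32851 upstream windows of the same length in the table, 3.9% held a kappaB match and 2.98% an ISRE core match. The window of Cxcl9 held no match to these motifs, nor to the AP-1 site TGANTCA (6.75% of windows) or the heat shock element core GAANNTTC (6.69%), and says nothing of sequence outside it. An AP-1 match was found in Cxcl10 (TGAGTCA, 74 bases upstream) and Ppbp, and a heat shock element core match in Pf4. Of the 9 genes, 7 were in the sequence table; Cxcl11 and Cxcl16 were not.

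**Figure D1:**
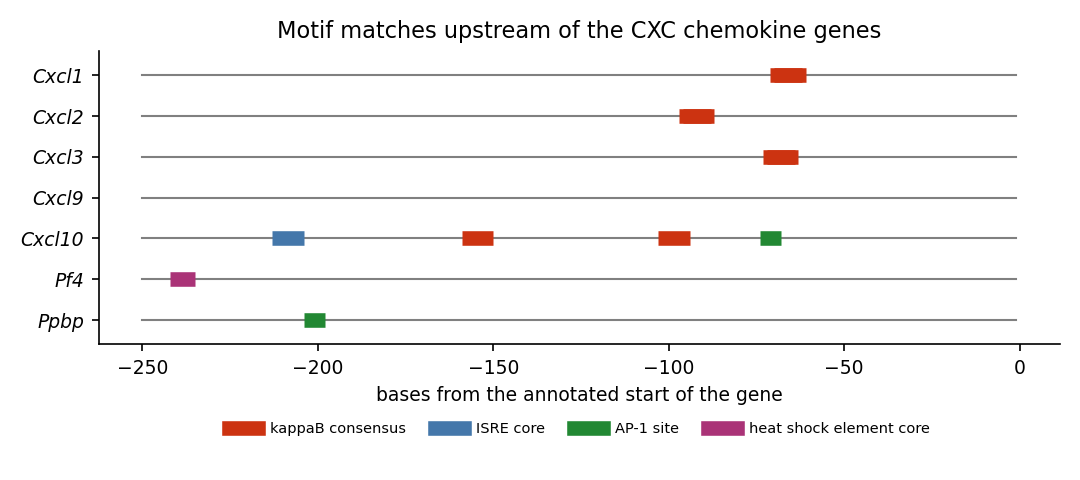
Matches to 4 motifs in the 250 bases upstream of 7 CXC chemokine genes; the x axis is the distance in bases from the annotated start, each grey line is 1 gene and each coloured block 1 match or 2 overlapping matches. Cxcl1, Cxcl2 and Cxcl3 each have a kappaB block 61 to 97 bases upstream, Cxcl10 has 2 kappaB blocks and the 1 ISRE core block, and Cxcl9 has none.

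The libraries differed by more than the treatment. Their summed FPKM ran from 413898 to 470596, and between 10390 and 10959 genes reached 1 FPKM. The depth is unknown, since no read counts are given. The first principal component (48.5% of the variance) placed the pair of libraries numbered 3 away from the remaining 4, and the second (36.6%) separated FSS from static. Of the markers of dendritic cells, Itgax (CD11c) stood at 397 to 599 FPKM and Cd74, the invariant chain of MHC class II, at 4178 to 5319 FPKM, while Flt3 (0.29 to 0.67 FPKM) and Cd209a (0.02 to 0.39 FPKM) stayed under 1 in every library. Of the 10 tested markers of this list 1 fell, Irf4, a factor needed by a class of dendritic cells (388 ± 55.0 to 106 ± 17.6 FPKM; limma adjusted p = 0.0133). With the replicate number as a block 6 were lower and none higher, Itgax, Zbtb46, Ccr7, Clec10a, Batf3 and Irf4 (3 lower and none higher after median-ratio scaling). Of all genes tested 0.862% were lower without the block, 25.1% with it and 16.8% after scaling as well. The part of these markers in the chemokine differences was not tested.

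Without the replicate number in the model, none of the 7 tested CXC genes passed limma's test with Benjamini-Hochberg adjustment over 10899 genes at 0.05, where 0.853% of all genes were called higher and 0.862% lower, 1.72% in all. At an unadjusted limma p under 0.05 there were 3, all higher: Cxcl1, Cxcl2 and Cxcl10 (4.27% of all genes were higher by that rule). Libraries with the same number deviated together, and with the number as a block 3 of the 7 rose (Cxcl1, Cxcl2, Cxcl10; 7.73% of all genes were called higher) and 1 fell (Cxcl3; 25.1% lower, and 32.9% in either direction). With the block and libraries scaled by their median ratio, 5 rose, Cxcl16 and Pf4 being the others (19.2% of all genes), and 1 fell (16.8%, with 36.0% in either direction). The scaling moved the median of all genes from -0.12 to 0.02 on the log2(FPKM + 1) scale, and no tested member changed sign with it. The 7 members had a median difference of 0.27 on that scale.

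Counted by pairs of the same number, 7 of the 9 genes were higher under FSS in all 3 pairs, 6 of them among the 7 tested (17.1% of all genes tested were higher in all 3 pairs), and Cxcl3 was lower in all 3 (47.3% of all genes). The groups did not overlap for Cxcl1, Cxcl2 and Cxcl10 among those tested, all with FSS above static (5.1% of all genes), and for the untested Cxcl11. For Cxcl1, Cxcl2, Cxcl10, Cxcl11 and Cxcl16 the fold within a pair was smallest in pair 3.

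**Figure D2:**
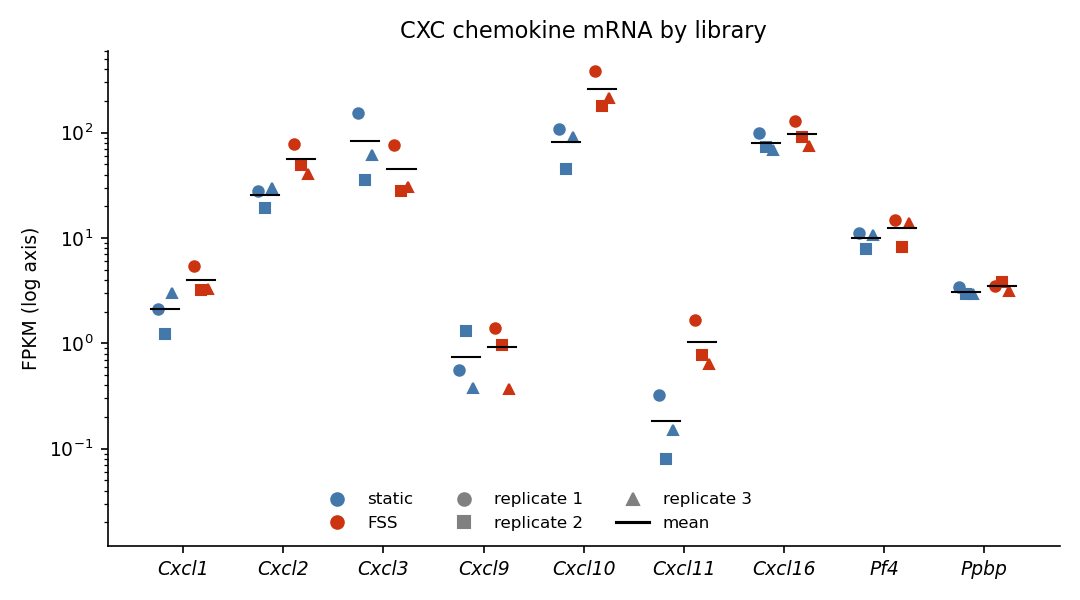
FPKM of the 9 CXC chemokine genes on a log axis, with 1 point for each library (blue static, red FSS; circle, square and triangle for replicates 1, 2 and 3) and a bar for the mean of 3 libraries. Cxcl10 runs from 45.5 to 109 FPKM in static and from 180 to 386 FPKM in FSS libraries, whereas for Cxcl3 the static mean of 84.0 lies above the FSS mean of 44.9 with overlapping points.

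Among the neutrophil attractants, Cxcl2 and Cxcl1 were higher and Cxcl3 lower under FSS. Cxcl2, also known as MIP-2, read 28.1, 19.3 and 29.6 FPKM in static replicates 1 to 3 and 77.5, 49.9 and 40.2 FPKM in the FSS replicates. Every FSS library lay above every static one, and the means were 2.18-fold apart, going from 25.7 ± 5.53 to 55.8 ± 19.3 FPKM (SD, n = 3 per group). The difference was 1.06 ± 0.28 (SE) on the log2(FPKM + 1) scale, with a limma adjusted p of 0.105 without and 0.00539 with the block. Within pairs 1, 2 and 3 Cxcl2 was 2.75-fold, 2.58-fold and 1.36-fold higher. Without FSS replicate 3 it passed without the block as well (difference 1.27, limma adjusted p = 0.0379), as it did with both libraries numbered 3 left out (1.38, adjusted p = 0.0401; then 3.69% of all genes were called higher and 3.42% lower, 7.11% in all). Without the other libraries, 1 at a time, it did not pass, and the limma adjusted p without the block lay between 0.0379 and 0.329 over all alternatives.

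Cxcl1, the mouse chemokine KC, was much lower in level. It read 2.14, 1.22 and 2.98 FPKM in static and 5.44, 3.24 and 3.26 FPKM in FSS replicates, so the groups were separate but the highest static library lay close to the lower FSS libraries. Mean FPKM was 1.88-fold higher under FSS. The log2(FPKM + 1) difference was 0.69 ± 0.26 (SE; limma adjusted p = 0.22, and 0.0231 with the block). Pairs 1 and 2 showed 2.54-fold and 2.66-fold differences and pair 3 only 1.09-fold. With both libraries numbered 3 left out the difference was 0.98 (limma adjusted p = 0.0771 without and 0.000453 with the block).

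Cxcl3, also named Dcip1, was the most abundant of the 9 in static cells by its mean and the most variable. Its static replicates 1 to 3 read 154, 35.7 and 62.0 FPKM and its FSS replicates 75.9, 28.2 and 30.5 FPKM. The groups overlapped, since FSS replicate 1 lay above static replicates 2 and 3, yet within each pair the FSS value was the lower one, by 2.03-fold, 1.26-fold and 2.04-fold. The log2(FPKM + 1) difference of -0.78 ± 0.56 (SE; 95% interval -2.08 to 0.52) did not pass (limma adjusted p = 0.53). With the block Cxcl3 fell, with the same difference, an SE of 0.14 and an adjusted p of 0.00669. Static replicate 1 weighed heavily: without it the unblocked difference was -0.22.

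The balance between these attractants was read from ratios within a library, which no scaling of libraries can change. The ratio of Cxcl2 to Cxcl3 was 0.182, 0.542 and 0.476 in static and 1.02, 1.77 and 1.32 in FSS replicates 1 to 3. Cxcl3 therefore exceeded Cxcl2 in every static library and Cxcl2 exceeded Cxcl3 in every FSS library. The mean log2 ratio went from -1.47 ± 0.86 to 0.42 ± 0.40 (SD, n = 3 per group; two-sided exact permutation p = 0.1, the smallest that 3 against 3 libraries allow, and 0.233 adjusted over 7 ratios). The ratio of Cxcl1 to Cxcl3 shifted likewise, by 1.76 log2, with no overlap between the groups (exact p = 0.1; 0.233 adjusted). The ratio of Cxcl1 to Cxcl2 ran from 0.0631 to 0.101 in static and from 0.0649 to 0.0811 in FSS libraries, with a difference of -0.13 log2 (exact p = 0.7; 0.8 adjusted) whose sign depended on static replicate 3. The pairs of genes were taken up after their values were seen. Transcripts of Cxcl2 and Cxcl3 share an identical stretch of 157 bases in GENCODE, holding 5.35% of the 50-base words of the longest Cxcl2 transcript, and how reads from it were divided is not given in the sources used here. Cxcl1 shares at most 23 identical bases in a row with either.

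**Figure D3:**
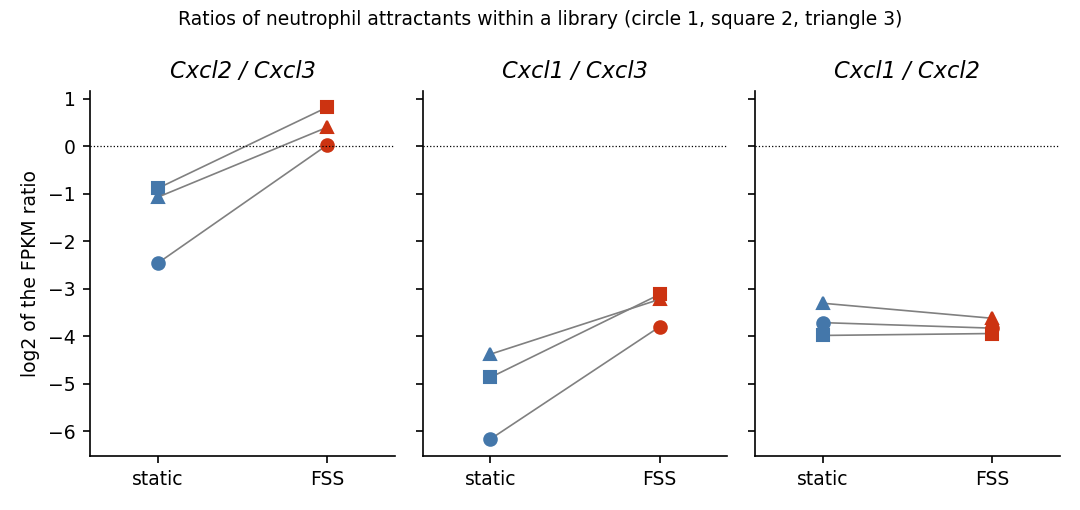
Log2 of the FPKM ratio of 2 genes within each library, static on the left and FSS on the right of each panel, with lines joining libraries of the same replicate number and the dotted line at equal values. Cxcl2 over Cxcl3 lies below the dotted line in the 3 static libraries and above it in the 3 FSS libraries, and Cxcl1 over Cxcl2 differs by -0.13 between the means.

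Of the CXCR3 ligands, Cxcl10 was by far the most abundant and showed the largest difference of the 7 tested genes. Cxcl10, or IP-10, read 109, 45.5 and 90.6 FPKM in static and 386, 180 and 216 FPKM in FSS replicates 1 to 3. The lowest FSS library was well above the highest static one. Mean FPKM went from 81.6 ± 32.5 to 260 ± 110 (SD, n = 3 per group), a 3.19-fold difference, with 3.55-fold, 3.95-fold and 2.38-fold in pairs 1 to 3. On the log2(FPKM + 1) scale this was 1.67 ± 0.39 (SE; 95% interval 0.78 to 2.57; limma adjusted p = 0.08), and with the block the SE was 0.14 and the adjusted p 0.000623. Leaving out any 1 library gave differences of 1.30 to 1.92 and, without the block, adjusted p-values of 0.0576 to 0.251.

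The RNA of Cxcl11 followed the same direction at the edge of detection. It read 0.32, 0.08 and 0.15 FPKM in static and 1.68, 0.77 and 0.63 FPKM in FSS replicates, without overlap, and higher in 3 of 3 pairs. In the RefSeq gene table of the C57BL/6J assembly Cxcl11 is a transcribed pseudogene, so a transcript need not give a protein in this strain. Tested without a filter on low values, its log2(FPKM + 1) difference was 0.75 and its limma adjusted p 0.166. Cxcl9, the ligand most tied to interferon gamma, read 0.56, 1.31 and 0.38 FPKM in static and 1.41, 0.97 and 0.37 FPKM in FSS replicates; the groups overlapped, only 1 of 3 pairs was higher, and without the filter its limma adjusted p was 0.896. Between these neighbours on chromosome 5, both under the filter, the ratio of Cxcl11 to Cxcl9 was 0.0611 to 0.571 in static and 0.794 to 1.70 in FSS libraries. These ranges did not overlap. The exact permutation p was 0.1, the smallest that 3 against 3 libraries allow (0.233 adjusted over the 7 ratios). As this lies above the threshold, no ratio could have passed, so the test does not decide whether the groups differ. The ratio of Cxcl10 to Cxcl9 overlapped between the groups (exact permutation p = 0.3, and 0.42 adjusted).

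Among the 7 tested genes Cxcl16 and the platelet chemokines differed least. Cxcl16 read 99.8, 72.8 and 68.6 FPKM in static and 128, 90.4 and 75.1 FPKM in FSS replicates, overlapping between groups but higher in each pair, by 1.29-fold, 1.24-fold and 1.09-fold. Its log2 difference was 0.27 (95% interval -0.30 to 0.84; limma adjusted p = 0.651, and 0.0516 with the block), and it passed with the block and median-ratio scaling (0.43, adjusted p = 0.00541). FSS replicate 1 carried much of the difference of Cxcl16, which was 0.05 without it and reached 0.44 without FSS replicate 3. With the block on replicates 1 and 2 alone 4 of the 7 rose, Cxcl16 beside Cxcl1, Cxcl2 and Cxcl10, and Cxcl3 fell (14.6% of all genes were called higher and 24.6% lower, 39.2% in all). Pf4, which binds heparin and is also made by some myeloid cells, read 11.2, 7.84 and 10.7 FPKM in static and 14.9, 8.22 and 13.99 FPKM in FSS replicates. Its values followed the replicate number more than the group, with number 2 lowest in both (log2 difference 0.27, 95% interval -0.31 to 0.84; limma adjusted p = 0.655, blocked 0.0882, blocked and scaled 0.0149). Leaving out 1 library moved the Pf4 difference between 0.12, without static replicate 2 or FSS replicate 1, and 0.51, without FSS replicate 2. Ppbp, the precursor of the neutrophil attractant NAP-2, read 3.41, 2.92 and 2.95 against 3.54, 3.79 and 3.15 FPKM, and its interval of -0.21 to 0.48 log2 spans zero (limma adjusted p = 0.717 without and 0.337 with the block). Of 14 markers of platelets and megakaryocytes, 8 stayed under 1 FPKM throughout, with the receptor genes Gp1ba, Gp1bb and Gp9 between 0 and 0.27 FPKM. The 6 tested were Vwf, highest in each library, Itgb3 (3.68 to 7.91 FPKM), Gng11 (2.70 to 5.77), F2rl2 (1.49 to 6.91), Clec1b (0.65 to 2.77) and Tubb1 (0.65 to 2.30). None passed without the block. With it Gng11 rose and F2rl2 fell (limma adjusted p = 0.0322 and 0.00297), against 7.73% and 25.1% of all genes. The list summed to 32.2 to 53.0 FPKM in static and 34.4 to 42.7 FPKM in FSS libraries.

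**Figure D4:**
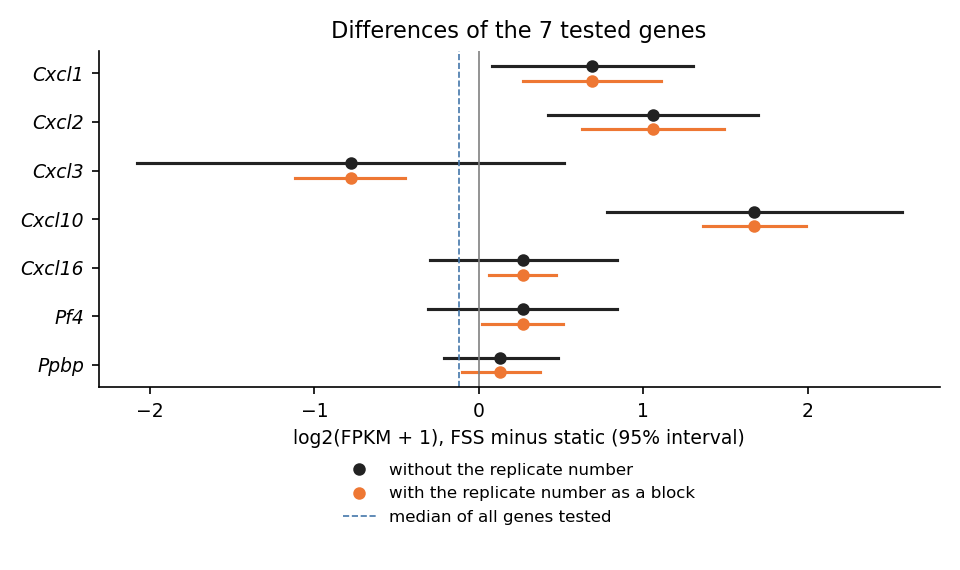
Difference of FSS minus static on the log2(FPKM + 1) scale for the 7 tested CXC genes, as points with 95% intervals from limma, in black without and in orange with the replicate number as a block; the dashed line is the median of all genes tested (-0.12). Point values are equal in both fits and the block narrows the intervals, for Cxcl3 from -2.08 to 0.52 to -1.12 to -0.45.

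The order of levels shifted with these differences. In static cells Cxcl3, Cxcl10 and Cxcl16 had means of 84.0, 81.6 and 80.4 FPKM and overlapped one another. Cxcl2, Pf4 and Ppbp followed, each below the one before it without overlap, then Cxcl1, which overlapped both Ppbp and Cxcl9, and last Cxcl11. Under FSS Cxcl10 stood alone at the top, above Cxcl16 without overlap. Cxcl16 overlapped Cxcl2 and Cxcl2 overlapped Cxcl3, Pf4 came next without overlap, and Cxcl1 and Ppbp overlapped each other, as did Cxcl11 and Cxcl9. The 9 genes summed to 187 to 408 FPKM in static and 365 to 694 FPKM in FSS libraries. Of this sum Cxcl10 made up 24.4% to 33.8% in static and 49.2% to 56.4% in FSS libraries. Cxcl3 made up 19.1% to 37.8% in static and 7.73% to 10.9% in FSS libraries, so neither share overlapped between the groups. Shares of a common sum are tied to one another, and a larger part of Cxcl10 leaves less for the rest. The share of Cxcl16 went from 24.4% to 39.0% in static to 18.5% to 24.8% in FSS libraries, although its FPKM was higher in each pair. The share of Cxcl3 is therefore no evidence separate from its FPKM and that of Cxcl10.

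Of 9 CXC chemokine receptor genes, 2 were expressed highly enough to test. Cxcr4, the receptor of CXCL12, rose, from 33.9, 27.6 and 25.5 FPKM to 77.2, 74.1 and 75.5 FPKM (log2 difference 1.36 ± 0.17, SE; limma adjusted p = 0.0167). Cxcr2, the receptor of CXCL1, CXCL2 and CXCL3, read 12.2, 25.6 and 17.4 FPKM in static and 3.74, 10.1 and 8.32 FPKM in FSS replicates. These groups did not overlap (20.4% of all genes had FSS below static without overlap), and Cxcr2 fell with the block alone (log2 difference -1.24; limma adjusted p = 0.131 without and 0.000865 with it). Neutrophils are rich in Cxcr2. Of 12 neutrophil markers 10 were tested, and none passed without the block (S100a8 alone had an unadjusted limma p under 0.05). With it 0 of these markers were higher (7.73% of all genes) and 2 lower (25.1%), S100a8 and Cebpe, or 2 higher (19.2%) and 1 lower (16.8%) after scaling. Their summed level was 302 to 541 FPKM in static and 265 to 446 FPKM in FSS libraries, and their part in the Cxcr2 difference was not tested. Cxcr3 and Cxcr6, the receptors of CXCL10 and CXCL16, were at 0 to 0.04 FPKM and 0.04 to 0.14 FPKM.

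Other chemokine genes were mostly lower under FSS. Of 8 further CXC, CX3C and XC genes only Cx3cl1, a membrane-bound attractant, was tested, at 19.2, 24.5 and 17.7 FPKM in static and 10.5, 17.6 and 8.66 FPKM in FSS replicates (log2 difference -0.74; limma adjusted p = 0.191, and 0.00404 with the block, with which it fell). Cxcl12 and Cxcl5 stayed at or under 0.2 FPKM. Of 11 tested CC chemokine genes 3 fell (0.862% of all genes), 9 in the blocked fit (25.1%) and 8 after scaling as well (16.8%). None rose in any of these fits. Their median was -0.79 log2(FPKM + 1) against 0.27 for the 7 CXC genes and -0.12 for all genes. Ccl3, which attracts monocytes and T cells, read 1045, 736 and 1006 FPKM in static and 243, 234 and 288 FPKM in FSS replicates, and Ccl2, a monocyte attractant, fell with the block from a mean of 276 to 120 FPKM (limma adjusted p = 0.0544 without and 0.000623 with it). Ccl4 and Ccl24 were the other falls without the block. In sum the CC genes stood at 12900 to 14100 FPKM in static and 7660 to 10400 FPKM in FSS libraries, far above the sum of the 9 CXC genes.

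Interferon genes upstream of the CXCR3 ligands moved in part. Ifnb1, which encodes interferon beta, rose from 0.21, 0.09 and 0.48 FPKM to 2.59, 2.03 and 2.45 FPKM (log2 difference 1.42 ± 0.17, SE; limma adjusted p = 0.0156). These levels are low but separate, and Ifnb1 passed the filter on low values through its FSS libraries alone, so that it had to differ to be tested. It was the single call among 15 tested genes of interferon signalling (0.853% of all genes were called higher). The blocked fit gave 5 higher and 2 lower, scaled or not. Of all genes 7.73% were higher and 25.1% lower in that fit, and 19.2% and 16.8% when scaled. Irf1, a factor that binds such promoters, stood at 41.5, 32.0 and 76.0 FPKM in static and 117, 94.96 and 95.1 FPKM in FSS replicates and rose with the block (adjusted p = 0.114 without and 0.00862 with it). Ifnar2, a chain of the receptor for interferon beta, rose with the block (means 42.3 and 60.7 FPKM; limma adjusted p = 0.0123), and Irf7, which amplifies interferon production, fell with it, from a mean of 56.1 to 24.2 FPKM (limma adjusted p = 0.082 without and 0.00176 with it). Of 25 other interferon-stimulated genes 1 fell (0.862% of all genes) and none rose without the block. The blocked fit gave 1 higher and 7 lower (3 and 6 after scaling), a share of lower genes near the 25.1% of all genes. The median of the 25 was -0.13 log2. The fall was in Socs1, a brake on cytokine signalling, from 175 ± 51.8 to 50.3 ± 11.4 FPKM (limma adjusted p = 0.0287), and Tap1, Irgm1 and Usp18 fell with the block.

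In the pathway of NF-kB, 2 of 24 tested genes rose (0.853% of all genes) and none fell. The blocked fit gave 6 higher (7.73% of all genes) and 3 lower (25.1%), and after scaling 7 (19.2%) and 3 (16.8%). The list median was -0.04 log2. Bcl3 and Irak2 were the calls without the block, and Tlr2 and Nfkbiz, an inducible cofactor needed by part of the NF-kB targets, rose with it. Nfkbiz read 6.97, 11.3 and 8.04 FPKM in static and 27.4, 24.9 and 13.7 FPKM in FSS replicates, with the smallest fold in pair 3. Other inflammatory targets split. Of 13 tested, 1 rose (Tnfsf9, a ligand that costimulates T cells). The blocked fit gave 4 higher and 4 lower (6 and 4 after scaling), to be read against the same shares of all genes. Ptgs2, the inducible cyclooxygenase, and Icam1 were among those higher with the block, at means of 7.41 and 17.3 FPKM and of 88.0 and 170 FPKM (limma adjusted p = 0.000643 and 0.00191). Tnf was lower with the block, at means of 118 and 73.0 FPKM (adjusted p = 0.00533).

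Genes acting on chemokine RNA or protein were called in both directions. The counts are to be read against 7.73% higher and 25.1% lower among all genes in the blocked fit. After scaling as well, 19.2% of all genes were higher and 16.8% lower. Of 10 decay factors that bind such messages none passed, at an unadjusted limma p under 0.05 none of them either, and in the blocked fit Rc3h2 and Khsrp were lower (1 higher and 1 lower after scaling). Of 14 proteases known to cut CXC chemokines none passed, with Mmp12 and Adam10 at an unadjusted limma p under 0.05, and the blocked fit gave 2 higher and 3 lower (5 and 2 after scaling), with Mmp12 and Mmp14 among the lower ones (limma adjusted p = 0.00343 and 0.00338). Adam10 and Adam17, which release CXCL16 from the membrane, differed in direction: Adam10 read 47.7, 50.6 and 44.6 against 31.4, 39.0 and 30.6 FPKM, and Adam17 read 47.1, 45.3 and 29.5 against 90.6, 72.0 and 39.1 FPKM. With the block Adam10 fell and Adam17 rose (limma adjusted p = 0.00705 and 0.0055; without it 0.174 and 0.347). Of 11 tested genes for proteoglycans, whose sugar chains hold chemokines in granules and at surfaces, 1 fell without the block (0.862% of all genes). The blocked fit gave 6 lower and none higher (3 lower and 1 higher after scaling). The call was Ndst2, an enzyme that sulfates heparan chains, from 23.5 ± 1.34 to 10.7 ± 2.80 FPKM (limma adjusted p = 0.0457), and Ndst1, Gpc1 and Cd44 fell with the block. Of 10 calls made without the block in these lists, Ndst2 among them, 0 remained without static replicate 1, FSS replicate 1 or FSS replicate 2. Over all genes 187 calls became 3, 8 and 10 in the same fits, so the loss was not particular to these lists.

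**Figure D5:**
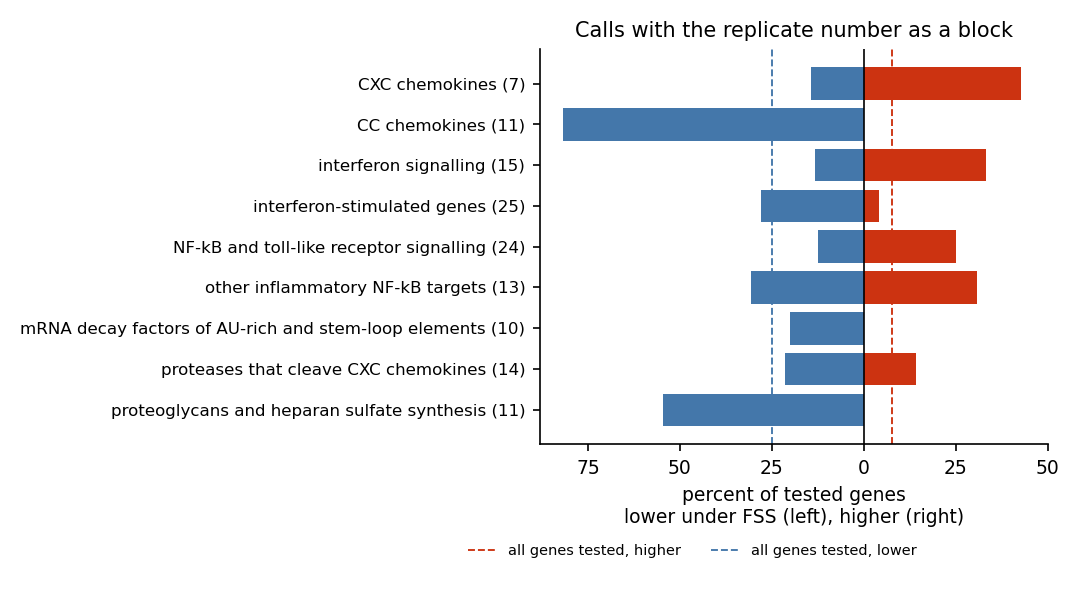
Percent of the tested genes of each list (number in brackets) called lower (left, blue) or higher (right, red) under FSS by limma with the replicate number as a block, with dashed lines at the shares of all genes tested, 25.1% lower and 7.73% higher. The CXC chemokines show 3 higher and 1 lower of 7, and the CC chemokines 9 lower of 11.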

How the data were processed

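The values that the authors deposited, headed only as expression, were taken as FPKM, and HISAT and Bowtie2 are among the tools in the submitters' processing notes. Library totals differ, and value times transcript length sums to 0.552 to 0.609 (median GENCODE transcript) or 1.14 to 1.28 (longest) of what FPKM gives by definition. The quantifier, genome build and strand setting: not given in the sources used here. Of 22899 genes, 4828 were blank. Low values showed no steps of whole reads, so there is no counting interval.

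Genes reaching 1 FPKM in 3 or more libraries (10899) were fitted on log2(FPKM + 1), which understates changes of low genes, with limma 3.58.1 in R 4.3.3 (trend, two-sided, Benjamini-Hochberg over all genes tested, threshold 0.05). Folds are ratios of mean FPKM. Same-numbered libraries deviated together from their group means across genes (Pearson 0.792, 0.664 and 0.866). Differently numbered ones gave 0.279 (static 2, FSS 1) and 0.216 (static 1, FSS 2). Where number 3 met another number the values were -0.537 to -0.781, so numbers 1 and 2 were told apart less clearly than number 3. The main fit and the ratio tests left the number out. The blocked fits and the comparisons by pair used it, although the labels state no pairing. The fits were tested on simulated data that kept the replicate effect. Without the block 0%, 22% and 86% of 1.5-fold, 2-fold and 4-fold changes were recovered (50 genes each, 0 false calls). With the block 48%, 70% and 100% were recovered (5 false calls). Low genes were given no change, so recovery for them is not known.

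Members and lists were chosen with earlier results of these data known. Named genes are the 9 members, up to 4 genes per list by smallest adjusted p among those passing with or without the block, and the 3 genes most like each tested member; others were named after their values were seen. Ratios were compared by exact permutation in scipy 1.17.1. Alternatives covered the pseudocount (0.1), the filter, the threshold (0.01), 2 scalings, the replicate block, each library left out and, chosen after seeing the data, both libraries numbered 3 left out.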

Additional observations from a re-analysis of the deposited data

How the results depend on the processing

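No tested CXC gene changed sign under any alternative run. Calls changed with the pairing: of the CXC genes 0 passed without the block and 4 with the replicate block, 6 with the block and median-ratio scaling, 5 with the block and without both libraries numbered 3, 1 without those libraries and no block, and 0 to 1 with 1 library left out (Cxcl2 without FSS replicate 3). Over all genes 187 calls became 3581 with the replicate block and 3921 with the block and scaling (93 higher and 94 lower against 842 and 2739, and 2092 and 1829), 5 at a threshold of 0.01, 21 without a filter, 113 with totals made equal, 775 and, with the block, 4270 without the libraries numbered 3, and 3 to 467 with 1 library left out. Median-ratio scaling gave 158 higher and 71 lower. In the related lists 10 calls became 57 with the replicate block and 60 with the scaling too, 0 at 0.01, 2 without a filter, 22 and, with the block, 69 without the libraries numbered 3, and 0 to 16 with 1 library left out. Among genes beside the CXC genes 0 became 4 with the replicate block, 5 with the scaling too and 4 with the block without number 3. At the deposited scale the block alone changed no call of Cxcl16, Pf4 or Ppbp; Cxcl16 passed with it after scaling (0.00541) or without number 3 (0.0121), and Pf4 after scaling (0.0149). With 1 library left out the ratio of Cxcl1 to Cxcl2 ran from -0.29 to 0.05 log2, above zero without static replicate 3, and that of Pf4 to Ppbp from -0.07 to 0.45, at -0.01, -0.03 and -0.07 without static replicate 2, FSS replicate 1 and FSS replicate 3. The cause was not tested. FPKM rounded to 2 decimals limit Cxcl9 and Cxcl11.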

Other observations

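The genes beside the CXC genes went in both directions, in counts to be read against the shares of all genes. In the gene table of assembly GRCm38.p6, 8 of the 9 lie on chromosome 5, where Ppbp, Pf4, Cxcl3, Cxcl15, Cxcl1 and Cxcl2 follow one another and Cxcl9, Cxcl10 and Cxcl11 form a second group, interrupted by Art3. Within 5 places of a member there were 32 other genes, of which 10 were tested. None passed limma's test without the block, and Sdad1 and Med11, both lower, had an unadjusted p under 0.05. With the block 1 was higher (7.73% of all genes) and 3 lower (25.1%), and after scaling 3 (19.2%) and 2 (16.8%). The median difference of the 10 was -0.01 on the log2(FPKM + 1) scale. Beside Cxcl16, Arrb2 and Zmynd15 were higher in 3 of 3 pairs, with differences of 0.20 and 0.22. At the deposited scale neither passed with or without the block. With the block and median-ratio scaling both passed, as Cxcl16 did (0.36 and 0.31, limma adjusted p = 0.0106 and 0.0341). Med11, directly next to Cxcl16, was lower in 3 of 3 pairs and fell with the block (difference -0.48, limma adjusted p = 0.161 without and 0.00975 with it). Psmb6, the remaining tested gene there, differed by -0.01. Beside Cxcl10, Nup54, a nuclear pore gene, read 15.1, 17.1 and 14.3 FPKM in static and 15.6, 17.7 and 13.1 FPKM in FSS replicates, and Art3 stayed at or under 0.04 FPKM. Beside Cxcl2, Mthfd2l, a mitochondrial folate enzyme, fell with the block, from a mean of 1.98 to 1.30 FPKM (limma adjusted p = 0.424 without and 0.0437 with it), and the growth factor genes Epgn and Ereg were at or under 0.09 FPKM.

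Genes with the most similar profile over the 6 libraries were ranked by Pearson's r of log2(FPKM + 1) among 8647 other genes (8648 for Cxcl1), as a description. The 6 libraries share the group and the replicate number, and between 1 gene (for Pf4) and 28 genes (for Cxcl2) had an r over 0.95. The nearest to Cxcl10 were Nuak1 (r = 0.982), F10 (0.974) and Fblim1 (0.971), and to Cxcl2 Ifnar2 (0.996), Tgif1 (0.989) and F10 (0.987). F10, which encodes coagulation factor X, was thus near both. For Cxcl1 they were Plpp3 (0.998), Wipi1 (0.984) and Atp6v1a (0.972). For Cxcl3 they were Sdc4 (0.978), Penk (0.969) and Sort1 (0.967), none of which was among the 3 nearest to Cxcl1 or Cxcl2. Cxcl16 was nearest to Rgs1 (0.994), Flrt3 (0.992) and Tnfrsf1b (0.991). Pf4 was nearest to Itm2b (0.981), Chil3 (0.942) and Ifi27 (0.941), and Ppbp to Btg3 (0.968), Nfil3 (0.961) and Mxd1 (0.951).

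Summed levels of markers of other cell types overlapped between the groups. Macrophage markers summed to 108 to 152 FPKM in static and 124 to 195 FPKM in FSS libraries, and of 8 tested none passed without the block (Mertk and Fcgr1 had an unadjusted limma p under 0.05). With it Mertk and Adgre1 rose (7.73% of all genes were higher) and Fcgr1 and Marco fell (25.1% lower). After scaling the counts were 3 higher (19.2% of all genes) and 2 lower (16.8%). Basophil and mast cell markers summed to 6.41 to 14.6 and 7.57 to 16.4 FPKM, stromal and endothelial markers to 12.4 to 18.4 and 10.3 to 14.2 FPKM, and lymphocyte markers to 1.27 to 4.03 and 1.74 to 2.66 FPKM. Most of the stromal and endothelial sum was Pecam1 (6.82 to 16.75 FPKM), and 5 of those 8 markers stayed under 1 FPKM throughout. With the block Pecam1 fell and Kdr rose (limma adjusted p = 0.00669 and 0.04), the 2 tested there.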
